A study of Mus musculus with 30 samples.

Results

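The genes of cholesterol synthesis, uptake and efflux were followed in the livers of mice conceived with sperm and seminal plasma of males on different diets. The list held 34 genes chosen by their known role: 19 for synthesis, 6 for control, 6 for uptake and storage, and 3 for efflux. Of these, 29 had a named probe set on the array, each 1 probe set, namely 17, 5, 4 and 3 by role. The annotation used here pairs no probe set with Acat2, Tm7sf2, Nr1h2, Soat1 and Soat2, so these 5 genes were not analysed. In all, 22206 probe sets were tested.

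Liver RNA was measured in 30 adult C57/BL6J offspring of 16 weeks, 1 Clariom S array per animal. The mothers were inseminated artificially and mated with vasectomised males, so that sperm and seminal plasma could come from different sires, fed a normal or a low protein diet. NN offspring had sperm and seminal plasma of males on the normal diet (3 females and 4 males), and LL offspring had both from low protein males (5 females and 4 males). In NL offspring the sperm came from normal diet males and the seminal plasma from low protein males, and in LN offspring it was the reverse (3 females and 4 males each). Litters are not in the labels, the study's methods took a male and a female from a litter, and p-values measure the spread between these animals. Values are log2 signals, so that a difference of 1 is a 2-fold change.

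In mammalian liver, cholesterol is built from acetyl-CoA through mevalonate, squalene and lanosterol. When sterols in the endoplasmic reticulum run low, SCAP carries the membrane-bound factor SREBP2 (Srebf2) to the Golgi, where it is cut and freed to switch on the enzymes, and INSIG1 and INSIG2 hold SCAP back when sterols are plentiful. When oxysterols accumulate, the receptor LXR alpha (Nr1h3) raises the transporters ABCA1, which loads cholesterol on apolipoproteins, and ABCG5 and ABCG8, which together pump sterols into bile.

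Promoters of 4 genes are shown because the results below turn on genes that moved together, 3 of them for enzymes that varied with squalene epoxidase and 1 for the bile transporter pair. They come from RefSeq (build GRCm38.p6) and run from 250 bases before to 50 bases after the annotated start, 5′ to 3′ on the strand of the gene. Capitals mark the sterol regulatory element core TCACCCCAC, which SREBP2 binds, the CCAAT box and the GC box GGGCGG, on either strand. Hmgcs1 lies at chr13:119690101-119690400 (+), Cyp51 at chr5:4104648-4104947 (-), Idi1 at chr13:8885356-8885655 (+) and Abcg5 at chr17:84682962-84683261 (-).
Hmgcs1: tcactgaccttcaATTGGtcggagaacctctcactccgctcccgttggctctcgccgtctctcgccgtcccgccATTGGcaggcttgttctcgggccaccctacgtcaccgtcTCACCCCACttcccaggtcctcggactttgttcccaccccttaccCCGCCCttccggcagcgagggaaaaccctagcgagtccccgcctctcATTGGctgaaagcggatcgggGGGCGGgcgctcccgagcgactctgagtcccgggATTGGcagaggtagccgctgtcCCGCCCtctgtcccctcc
Cyp51: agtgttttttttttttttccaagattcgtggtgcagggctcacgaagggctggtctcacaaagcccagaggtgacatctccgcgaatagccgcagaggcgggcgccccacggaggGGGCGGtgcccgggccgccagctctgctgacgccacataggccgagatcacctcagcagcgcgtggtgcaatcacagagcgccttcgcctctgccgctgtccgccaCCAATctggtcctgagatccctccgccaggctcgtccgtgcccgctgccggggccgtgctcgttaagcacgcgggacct
Idi1: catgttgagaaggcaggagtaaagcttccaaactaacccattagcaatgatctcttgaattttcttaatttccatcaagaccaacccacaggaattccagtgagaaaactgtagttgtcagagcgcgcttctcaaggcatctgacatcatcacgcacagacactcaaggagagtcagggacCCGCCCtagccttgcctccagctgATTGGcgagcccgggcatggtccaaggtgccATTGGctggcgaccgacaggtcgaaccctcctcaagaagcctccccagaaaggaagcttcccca
Abcg5: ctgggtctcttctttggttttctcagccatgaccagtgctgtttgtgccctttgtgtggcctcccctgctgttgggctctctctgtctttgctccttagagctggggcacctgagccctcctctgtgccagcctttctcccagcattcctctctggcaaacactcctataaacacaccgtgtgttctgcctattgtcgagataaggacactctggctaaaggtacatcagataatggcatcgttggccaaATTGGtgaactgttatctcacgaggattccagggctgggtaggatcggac

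Of the listed genes, 28 had a promoter in the table, unmeasured genes included. The core TCACCCCAC was found in 1 of them, Hmgcs1, at position -137 from the start, and in 0.614% of all genes with a promoter. The shorter CACCCCAC, which lies within the core, was found in Hmgcs1 and Acat2 and in 3.3% of all genes. A CCAAT box was present in 23 of the 28 genes and in 41.1% of all genes, and a GC box in 22 of the 28 and in 38.2% of all genes. In the Cyp51 and Idi1 windows shown, CCAAT and GC boxes were found and no exact match to the core, and in that of Abcg5 a CCAAT box alone. The search took exact matches only, so a sterol element with other letters would not be found. A gene without a match is therefore not shown to lack such an element. Abcg5 and Abcg8 are read in opposite directions from nearest annotated start sites 110 bases apart, and these windows share 209 bases. Their promoter windows are thus largely the same DNA.

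NL replicate 6, labelled male, stood apart from all other arrays. Its hybridisation controls averaged 8.59 against 10.39 to 11.17 on the other 29 arrays, its mean over the 29 genes was 6.62 against 8.26 to 9.70, and it was the lowest of the 30 arrays for 26 of the 29 genes. The share of all probe sets that were lowest on it is not given here. The 90th percentile of all tested probe sets was also low on this array, at 7.71 against 8.53 to 8.84 on the others. The mean of 3 Y-linked genes was 3.06 on it, against 6.40 to 7.36 on the other males, and 5.22 on LL replicate 1, labelled female, against 2.38 to 3.00 on the other females. Each result is therefore given with all arrays and without NL replicate 6, and the comparison of the sexes also without LL replicate 1. The 5 hepatocyte markers averaged 12.90 to 13.04 on every array other than NL replicate 6, where they averaged 12.07. Of the other markers, NN replicate 5 stood high in the 3 measured genes of pancreatic acinar cells, 9.47 against at most 5.44 on the others apart from NL replicate 6. LL replicate 2 stood high in the 2 measured genes of adipocytes, 5.16 against at most 4.30 on the others apart from NL replicate 6. In whole liver, fewer cells of a type and less RNA per cell cannot be told apart.

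**Figure D1:**
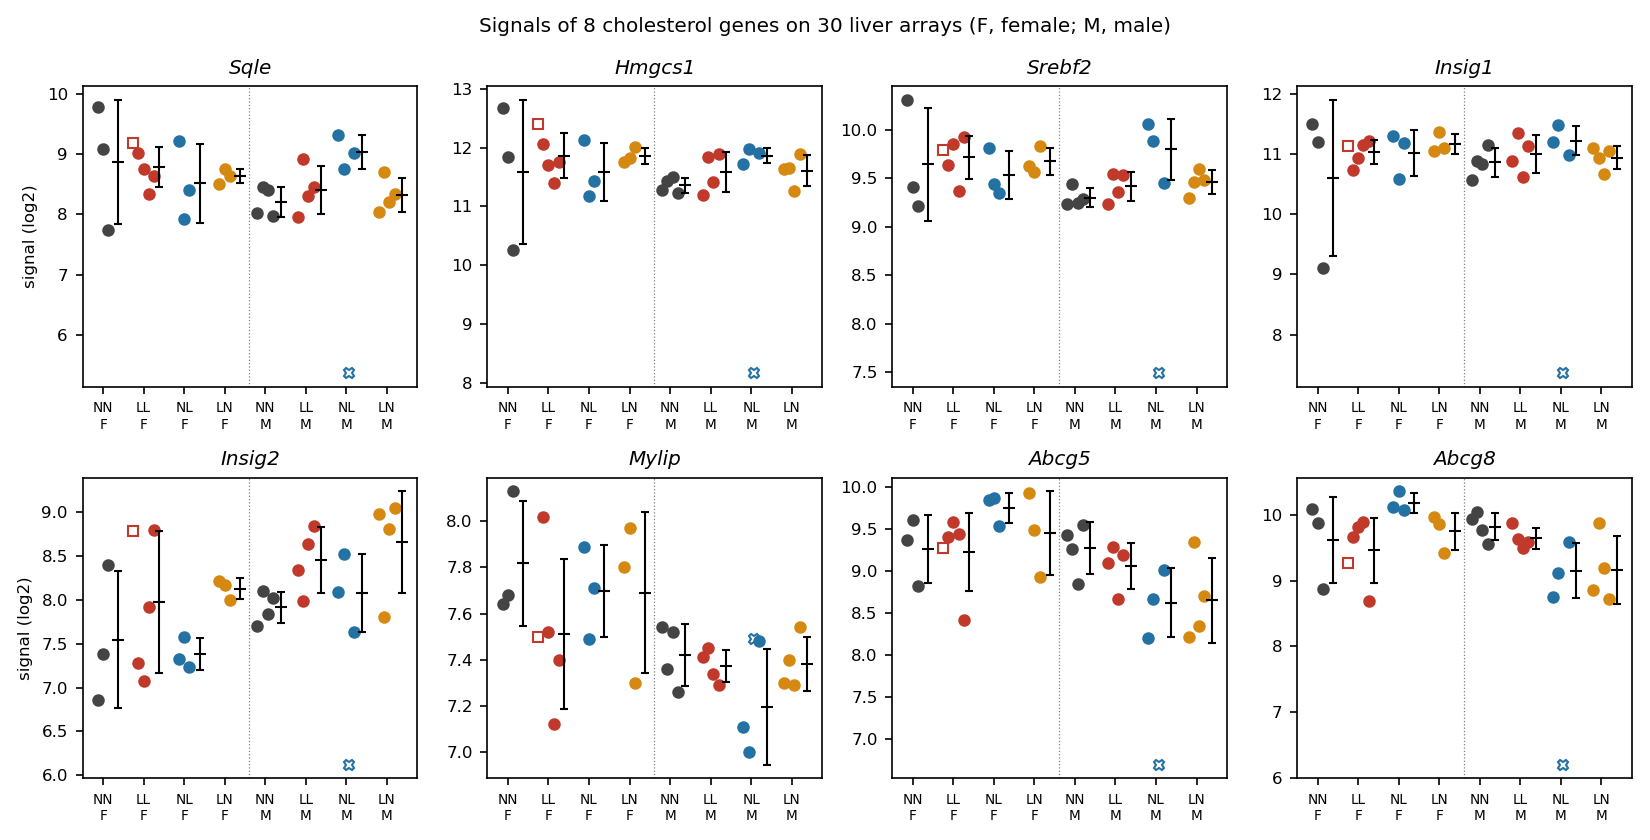
Signals (log2, vertical axis) of 8 cholesterol genes on each of 30 liver arrays, by diet group and sex. Points are animals, the cross is NL replicate 6 and the open square LL replicate 1; bars are mean ± SD without NL replicate 6. Sqle ran from 7.75 to 9.78 in 3 NN females and from 7.97 to 8.45 in 4 NN males.

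Once NL replicate 6 was left out, the enzymes of synthesis spread most widely among the NN females. With that array, the median range of an enzyme was 3.23 in the 4 NL males, 2.17 in the 3 NN females and 0.25 to 0.94 in the other groups of diet and sex. In these 3 animals Sqle, squalene epoxidase, a rate-limiting enzyme of the sterol branch, had signals of 9.78, 9.08 and 7.75. Hmgcs1, which makes HMG-CoA, had signals of 12.67, 11.85 and 10.26. Nsdhl, a sterol dehydrogenase that helps to remove methyl groups after lanosterol, had signals of 11.37, 10.34 and 7.94. In each of these 3 genes the replicates 1, 2 and 3 stood high, middle and low.

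Without NL replicate 6, NN replicate 3 was the lowest of 29 arrays for 15 of the 17 enzymes and NN replicate 1 the highest for 15. The exceptions were Hsd17b7 and Ggps1 at the low end, and Ebp and Ggps1 at the high end. Replicate 1 exceeded replicate 3 by a median of 2.17 on the log2 scale over the enzymes (4.5-fold), against 0.01 over all probe sets. Nsdhl differed by 3.43 (10.8-fold), Idi1, which isomerises isopentenyl diphosphate, by 3.16 (8.9-fold), Fdps, farnesyl diphosphate synthase, by 3.05 (8.3-fold), and Ggps1, which makes the lipid for protein prenylation on a side branch, by -0.37. The median SD of the enzymes in NN females was 1.10 (n = 3), against 0.13 to 0.46 in the other 7 groups of diet and sex and 0.22 for all probe sets in NN females. Only 3 animals stand behind this spread, and no test was made of arrays singled out by their values.

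The genes of control followed in part. Insig1, itself a target of SREBP2, had signals of 11.50, 11.20 and 9.11 in NN replicates 1, 2 and 3, and Srebf2 had signals of 10.31, 9.41 and 9.21. Insig2 ran in the other direction, with 6.86, 7.38 and 8.40. NN replicate 3 also had the highest level of the 4 stellate cell markers (8.83, against 7.26 to 8.46 on the other arrays apart from NL replicate 6) and of the 4 sinusoidal endothelium markers (8.05 against 7.23 to 7.90), while its hepatocyte markers were at 13.01. Its 2 measured adipocyte markers averaged 4.30, above all other arrays apart from NL replicate 6 and LL replicate 2 (5.16). The part of these cells in the low signals was not tested.

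**Figure D2:**
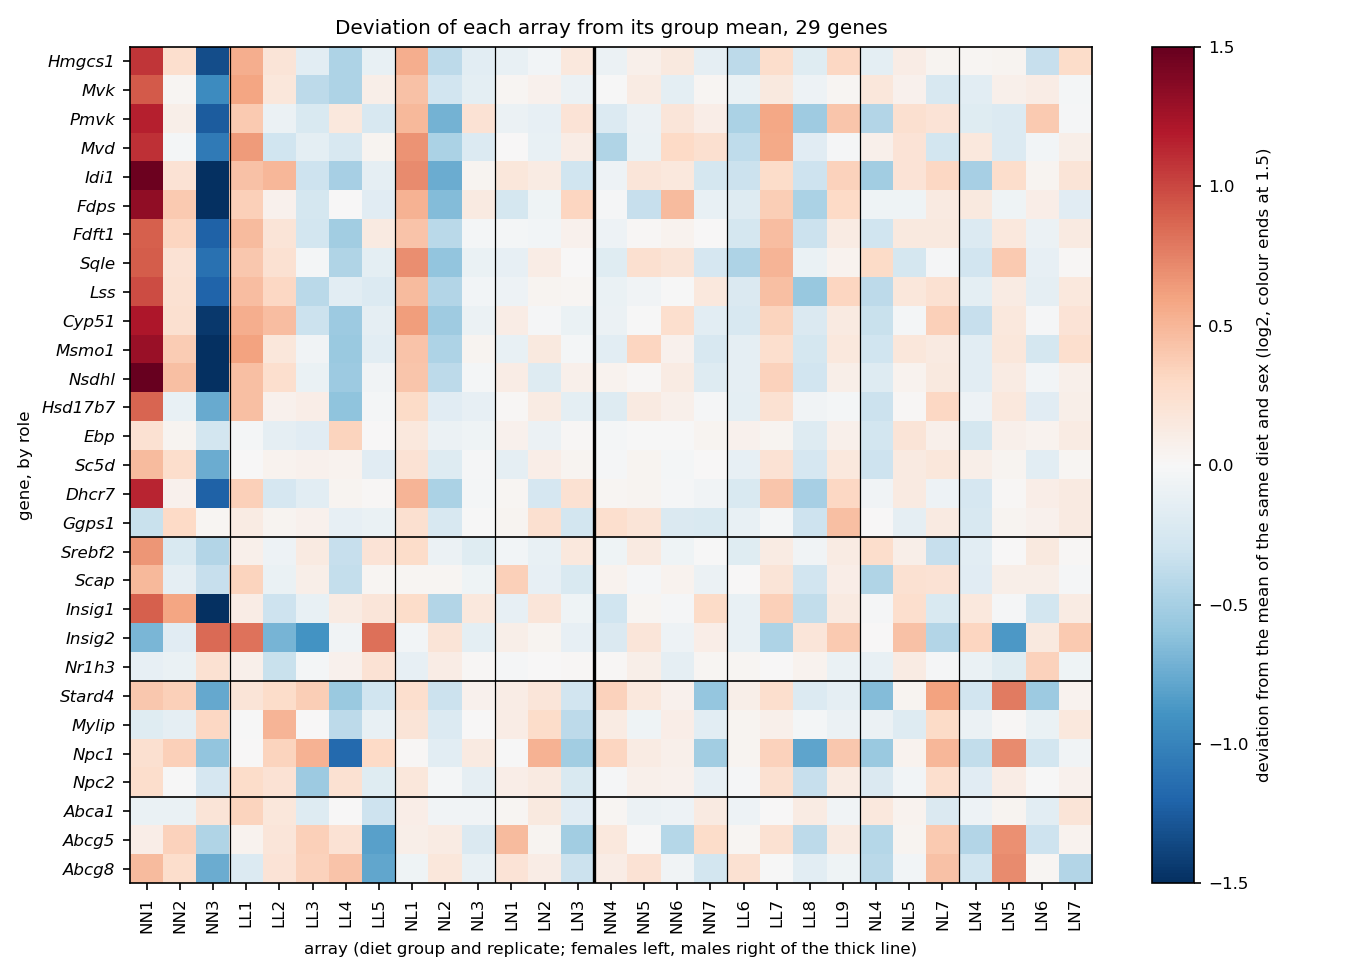
Deviation (log2) of each array (columns) from the mean of its diet and sex group for 29 genes (rows, by role), without NL replicate 6. NN replicate 1 is red and NN replicate 3 blue for most enzymes of synthesis, with a difference of 3.43 for Nsdhl, and Insig2 shows the opposite colours in these 2 arrays.

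Among animals of the same diet and sex, most enzymes of synthesis varied together with Sqle. The deviations of each array from its group mean were compared over 29 arrays, and the same was done for all 22205 other probe sets, whose r had a median of 0 and 5th and 95th percentiles of -0.41 and 0.41. The 16 other enzymes had a median r of 0.80. Cyp51, lanosterol demethylase, had r = 0.88 (Spearman rho = 0.78, permutation p = 5e-05), Hmgcs1 r = 0.88 (rho = 0.76, permutation p = 0.00016), Msmo1, sterol methyl oxidase, r = 0.87 (rho = 0.77, permutation p = 3e-05) and Idi1 r = 0.86 (rho = 0.73, permutation p = 0.00027). Of all named probe sets, the 7 with the highest r were these 4 with Fdft1, squalene synthase, Nsdhl and Mvk, mevalonate kinase.

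Srebf2 had r = 0.69 with Sqle (rho = 0.52, permutation p = 0.0125) and Insig1 r = 0.69 (rho = 0.38, permutation p = 0.0345). Of the genes of uptake, Stard4, which carries cholesterol through the cytosol, had r = 0.59 (rho = 0.58, permutation p = 0.00475), and Npc1 and Npc2, which release cholesterol from lysosomes, had r = 0.45 and 0.46. The transporters had r = 0.03 for Abca1, 0.24 for Abcg5 and 0.33 for Abcg8. The lowest values were those of Nr1h3 (r = -0.55, rho = -0.62, permutation p = 0.00893) and Insig2 (r = -0.45, rho = -0.38, permutation p = 0.064).

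With arrays permuted within groups (100000 two-sided resamples), 20 of 28 genes had an unadjusted p under 0.05, 19 of them with positive r, against 8.23% of all probe sets. After adjustment over all 22205 probe sets none of the 28 passed, the smallest adjusted p being 0.185, and 0% of all probe sets passed. When arrays were permuted across all groups, a choice made after the data were seen, 16 of the 28 genes passed after adjustment, against 0.459% of all probe sets. That permutation takes the spread to be equal in all groups. The median SD of the enzymes was 1.10 in NN females and 0.13 to 0.46 in the other groups, so these passes do not decide the question. NN replicates 1 and 3 were the arrays farthest from the median of Sqle. Leaving them out also dropped NN replicate 2, then the only animal of its group, so that no NN female remained. Without these arrays the median r of the 16 enzymes was 0.62, and Cyp51 and Hmgcs1 were both at 0.77. Of the 28 genes, 16 had an unadjusted p under 0.05, against 7.28% of all probe sets. Insig1 was then at r = 0.31, Sc5d, a desaturase late in synthesis, at 0.37, and Insig2 at -0.22. With NL replicate 6 in, Insig2 was at 0.27 and Nr1h3 at 0.65, both of the opposite sign. All genes share the normalization of an array, and genes are not independent replicates.

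**Figure D3:**
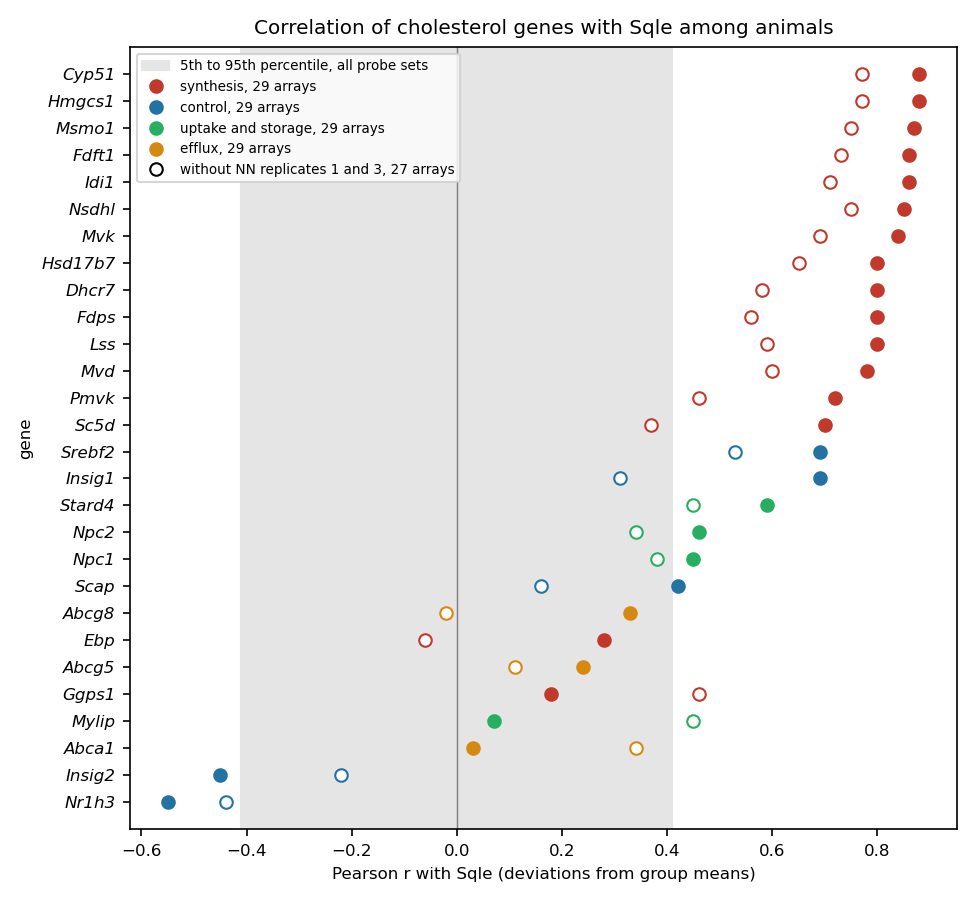
Pearson r with Sqle (horizontal axis) of 28 genes over deviations from the means of diet and sex groups, for 29 arrays (filled) and without NN replicates 1 and 3 (open). NN replicate 2, then the only NN female, also dropped out of the open points. Fewer arrays thus stand behind them than the 27 in the key. The grey band runs from -0.41 to 0.41, the 5th to 95th percentile of all probe sets, and the enzymes from Cyp51 (0.88) to Sc5d (0.70) lie above it with 29 arrays.

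Sperm and seminal plasma of males on the low protein diet were first compared over both sexes. A gene was called where it passed both a fold change of 1.5 and, before any adjustment, a p of 0.05. With all arrays, 0 of 29 genes were called in LL against NN (0.0901% of all probe sets), 0 in NL against NN (5.03%), 1 in LN against NN (0.36%) and 1 in NL against LN (3.52%). Leaving out NL replicate 6 gave 0 (0.0991%), 0 (0.459%), 1 (0.41%) and 1 (0.212%). None of the 29 genes had an adjusted p under 0.05 in any of these comparisons.

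The called gene was Insig2 in both cases. Its signals ran from 6.86 over a median of 7.84 to 8.40 in NN offspring, from 7.80 over 8.22 to 9.05 in LN, from 7.08 over 8.34 to 8.85 in LL and, without NL replicate 6, from 7.23 over 7.61 to 8.52 in NL offspring. The medians of LN and LL offspring thus lay above those of NN and NL offspring. The mean was 7.73 in NL offspring without NL replicate 6 and 7.76 in NN offspring. LN and NL offspring overlapped between 7.80 and 8.52. LN exceeded NN by 0.68 on the log2 scale (SE 0.31, adjusted p = 1), and by the same 0.68 without NL replicate 6 (SE 0.27, adjusted p = 0.333). Leaving out NN replicate 1, 2 or 4 or LN replicate 4, 6 or 7 ended this call, with differences of 0.53 to 0.67, and so did the plain residual variance and median-centring. NL lay below LN by -0.93 (SE 0.31, adjusted p = 0.339), and by -0.70 without NL replicate 6 (SE 0.28, adjusted p = 0.642).

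The 2 diets were also compared by source, averaging over the other. Low protein against normal sperm called Insig2 alone with all arrays (1 of 29 genes, against 0.0991% of all probe sets), with a difference of 0.68 (SE 0.21, adjusted p = 0.844). Without NL replicate 6 the difference was 0.57 (SE 0.19, adjusted p = 0.682), below the fold change asked for, and 0 genes were called (0.0811%). Low protein against normal seminal plasma called 0 genes with all arrays (0.027%) and 0 without NL replicate 6 (0%), and Mvd, the decarboxylase that ends the mevalonate steps, was nearest, at 0.33 without that array (SE 0.16).

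The position of the enzymes as a group against NN moved with NN replicates 1 and 3. Without NL replicate 6 the difference was positive for 17 of 17 enzymes in LL (median 0.20), 15 of 17 in NL (median 0.26) and 14 of 17 in LN (median 0.20), against medians of 0.01, 0.01 and 0.02 over all probe sets. With NN replicate 3 left out as well, an alternative added after the data were seen, it was positive for 11 of 17 in LL (median 0.02), 11 in NL (median 0.06) and 8 in LN (median 0.00), and with NN replicate 1 left out in its place the medians were 0.39, 0.43 and 0.38. These comparisons share the 7 NN arrays and none of the enzymes was called. With NL replicate 6 in, 12 of 17 enzymes lay below NN in NL offspring (median -0.14). Ebp, which shifts the sterol double bond, had the smallest p of an enzyme in LN and in NL without that array, at 0.35 in LN (SE 0.10, adjusted p = 0.199) and 0.28 in NL (SE 0.11, adjusted p = 0.237). Ebp ran from 9.98 over 10.54 to 10.62 in NN and from 10.59 over 10.77 to 10.97 in LN, so that the groups barely overlapped. With all arrays Ebp was at 0.35 in LN (SE 0.27, adjusted p = 1) and at -0.11 in NL (SE 0.27). Mvd was at 0.41 in LL (SE 0.22). Nsdhl was at 0.57 in NL without NL replicate 6 (SE 0.29), while with all arrays the enzymes in NL ran from -0.56 to 0.33. In LL, 4 of 4 genes of uptake and storage (-0.41 to -0.09) and 3 of 3 transporters (-0.19 to -0.10) lay below NN, and 4 of 5 genes of control above. For the genes other than Insig2 the differences without NL replicate 6 ran from -0.41 to 0.57, with Sqle at 0.12 in LL, 0.28 in NL and -0.04 in LN (SE 0.23 to 0.25), Abca1 at -0.10, -0.02 and 0.00 (SE 0.10 to 0.11) and Nr1h3 at -0.10, 0.10 and 0.05 (SE 0.09 to 0.10).

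**Figure D4:**
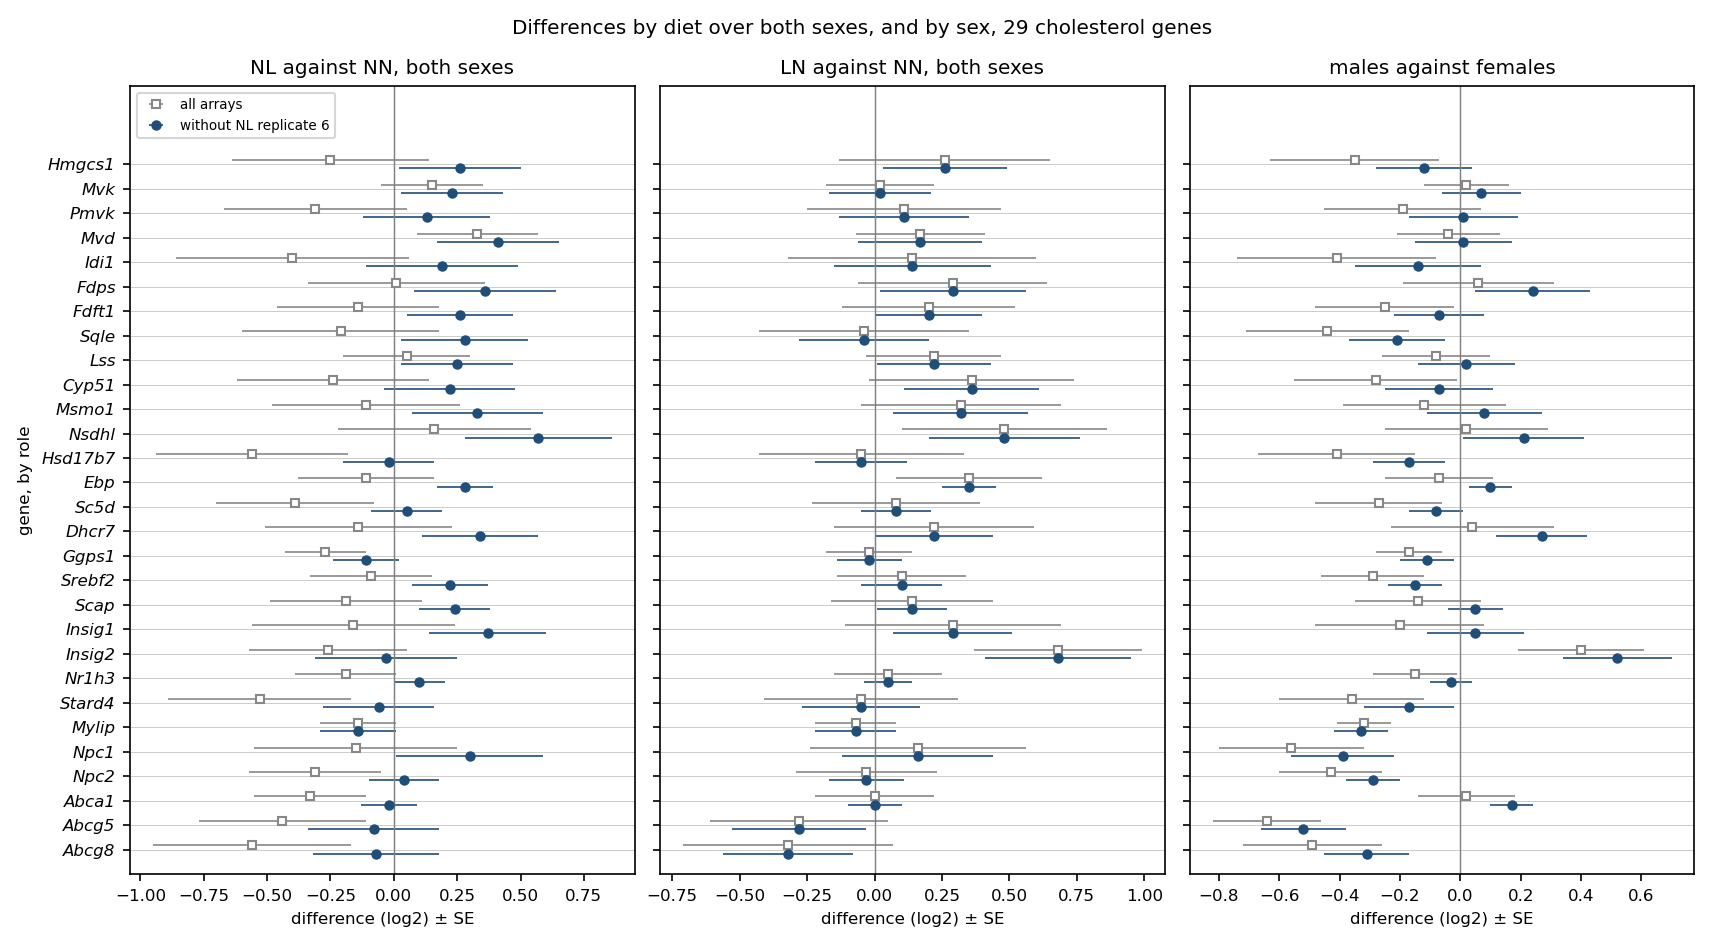
Difference (log2, horizontal axis) ± SE for 29 genes in NL against NN and LN against NN over both sexes and in males against females, with all 30 arrays (open squares) and without NL replicate 6 (filled). Insig2 lies at 0.68 in LN against NN, and in males against females at 0.52 without that array, where Abcg5 is at -0.52.

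In females alone no gene was called. The counts with all arrays were 0 of 29 in LL against NN (1.43% of all probe sets), 0 in NL (1.59%) and 0 in LN (1.24%), and without NL replicate 6, whose array enters the shared estimate of the spread, 0 (1.73%), 0 (2.11%) and 0 (1.79%). The spread of NN females described above entered each of these comparisons. Leaving out NN replicate 1 called Mvd (0.95), Nsdhl (1.38) and Fdps (1.14) as higher in LL females, and Nsdhl as higher in NL females (1.42) and in LN females (1.56), beside 2.22%, 2.7% and 1.95% of all probe sets. Leaving out NN replicate 3 instead called Mvk as lower in NL females (-0.59, beside 1.52%) and in LN females (-0.71, beside 1.32%), and turned Mvd in LL females from 0.41 to -0.12 and Nsdhl in LN females from 0.81 to -0.16. All of these had an adjusted p of 1. The direction of these enzymes in females thus changed with the NN animal left out.

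Ebp had signals of 10.48, 10.30 and 9.98 in NN females, 10.92, 10.67 and 10.69 in NL females and 10.77, 10.62 and 10.73 in LN females, so that NN females lay below both groups. The differences without NL replicate 6 were 0.51 in NL (SE 0.15, adjusted p = 0.361) and 0.45 in LN (SE 0.15, adjusted p = 0.468), under the fold change asked for. With all arrays the SE was 0.40 and the adjusted p 1 for both. In LL females Ebp was at 0.35 (SE 0.14, adjusted p = 0.338). Npc1 had signals of 8.23, 8.35 and 7.39 in NN females and of 8.72, 8.54 and 8.83 in NL females, a difference of 0.71 (SE 0.38 without NL replicate 6). NL females were all above NN females for this lysosomal transporter, but the difference did not pass the test. Mylip, an E3 ligase that degrades lipoprotein receptors, differed by -0.31 in LL females (SE 0.17), Nr1h3 by -0.23 in the same females (SE 0.13), and Scap by 0.41 in LN females (SE 0.20).

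In males the bile transporters Abcg5 and Abcg8 had lower mean signals in both groups of mixed origin, without reaching an adjusted p under 0.05 with all arrays or without NL replicate 6. Abcg5 had signals of 9.43, 9.26, 8.85 and 9.55 in NN males, 8.20, 8.66, 6.69 and 9.01 in NL males, and 8.21, 9.34, 8.34 and 8.70 in LN males. Abcg8 had signals of 9.93, 10.04, 9.77 and 9.55 in NN males, 8.75, 9.11, 6.20 and 9.59 in NL males, and 8.86, 9.87, 9.19 and 8.72 in LN males. The third value of NL is the array that stood apart. Among the rest, 3 of 3 NL males and 3 of 4 LN males lay below the NN mean for each of the transporters, and the groups overlapped through NL replicate 7 and LN replicate 5.

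With all arrays, NL against NN males called 3 of 29 genes, against 20.9% of all probe sets: Abcg8 by -1.41 (SE 0.43, adjusted p = 0.083), Abcg5 by -1.13 (SE 0.35, adjusted p = 0.083) and Stard4 by -1.02 (SE 0.46, adjusted p = 0.128). With NL replicate 6 still in, the count became 5 without NL replicate 4 (28% of all probe sets), 10 without NL replicate 5 (33.9%) and 10 without NL replicate 7 (34.9%), all of these genes lower. Abcg5 and Abcg8 then had an adjusted p of 0.0271 and 0.0268 without NL replicate 5, and of 0.0131 and 0.0125 without NL replicate 7. Sc5d and Stard4 passed as well without NL replicate 5 (0.0482 and 0.0497). Without NL replicate 7 so did Stard4 (0.0212), Sc5d (0.0406) and Ggps1 (0.0493). In these fits NL replicate 6 was 1 of 3 NL males, and the share of all probe sets at an adjusted p under 0.05 is not given here. Left without NL replicate 6, the comparison called 4 of 29 genes, against 2.06% of all probe sets. Abcg8 lay lower by -0.67 (SE 0.28, adjusted p = 0.364) and Abcg5 by -0.65 (SE 0.28, adjusted p = 0.38). LN against NN males called 0 genes with all arrays (1.49%) and 3 without NL replicate 6 (1.93%): Abcg8 by -0.66 (SE 0.26, adjusted p = 0.297), Abcg5 by -0.62 (SE 0.26, adjusted p = 0.334) and Insig2 by 0.74 (SE 0.33, adjusted p = 0.374). NL and LN males were compared with the same 4 NN males. LL against NN males called 0 genes with all arrays (0.518%) and 0 without that array (0.572%), and Abcg5 there was at -0.22 (SE 0.26), Insig2 at 0.54 (SE 0.33) and Mvd at 0.34 (SE 0.30).

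The other genes called in NL males without NL replicate 6 were enzymes. Sqle had signals of 9.32, 8.76 and 9.02 in these 3 NL males and of 8.03, 8.45, 8.40 and 7.97 in NN males, a difference of 0.82 (SE 0.32, adjusted p = 0.331). Mvd had signals of 8.35, 8.47 and 8.00 against 6.99, 7.34, 7.74 and 7.67, a difference of 0.84 (SE 0.33, adjusted p = 0.327). Srebf2 had signals of 10.06, 9.88 and 9.45 against 9.23, 9.44, 9.24 and 9.29, a difference of 0.50 (SE 0.19, adjusted p = 0.324), which was under the fold change asked for. For each of these genes all 3 NL males lay above all 4 NN males, though for Srebf2 the nearest values were 9.45 and 9.44. The same held for the enzymes Mvk, Hmgcs1, Nsdhl, Dhcr7 and Fdft1, while the other enzymes overlapped. These genes were read in the same few animals and are not independent of each other. The share of all probe sets that part in this way is not given here. Over the enzymes the difference was positive for 15 of 17 without NL replicate 6 (median 0.42, against 0.01 over all probe sets), and negative for 14 of 17 with all arrays (median -0.39, against 0.08). With NL replicate 6 in, Sqle was at -0.10 (SE 0.52) and Srebf2 at -0.08 (SE 0.32), so leaving out that array turned the direction of both.

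**Figure D5:**
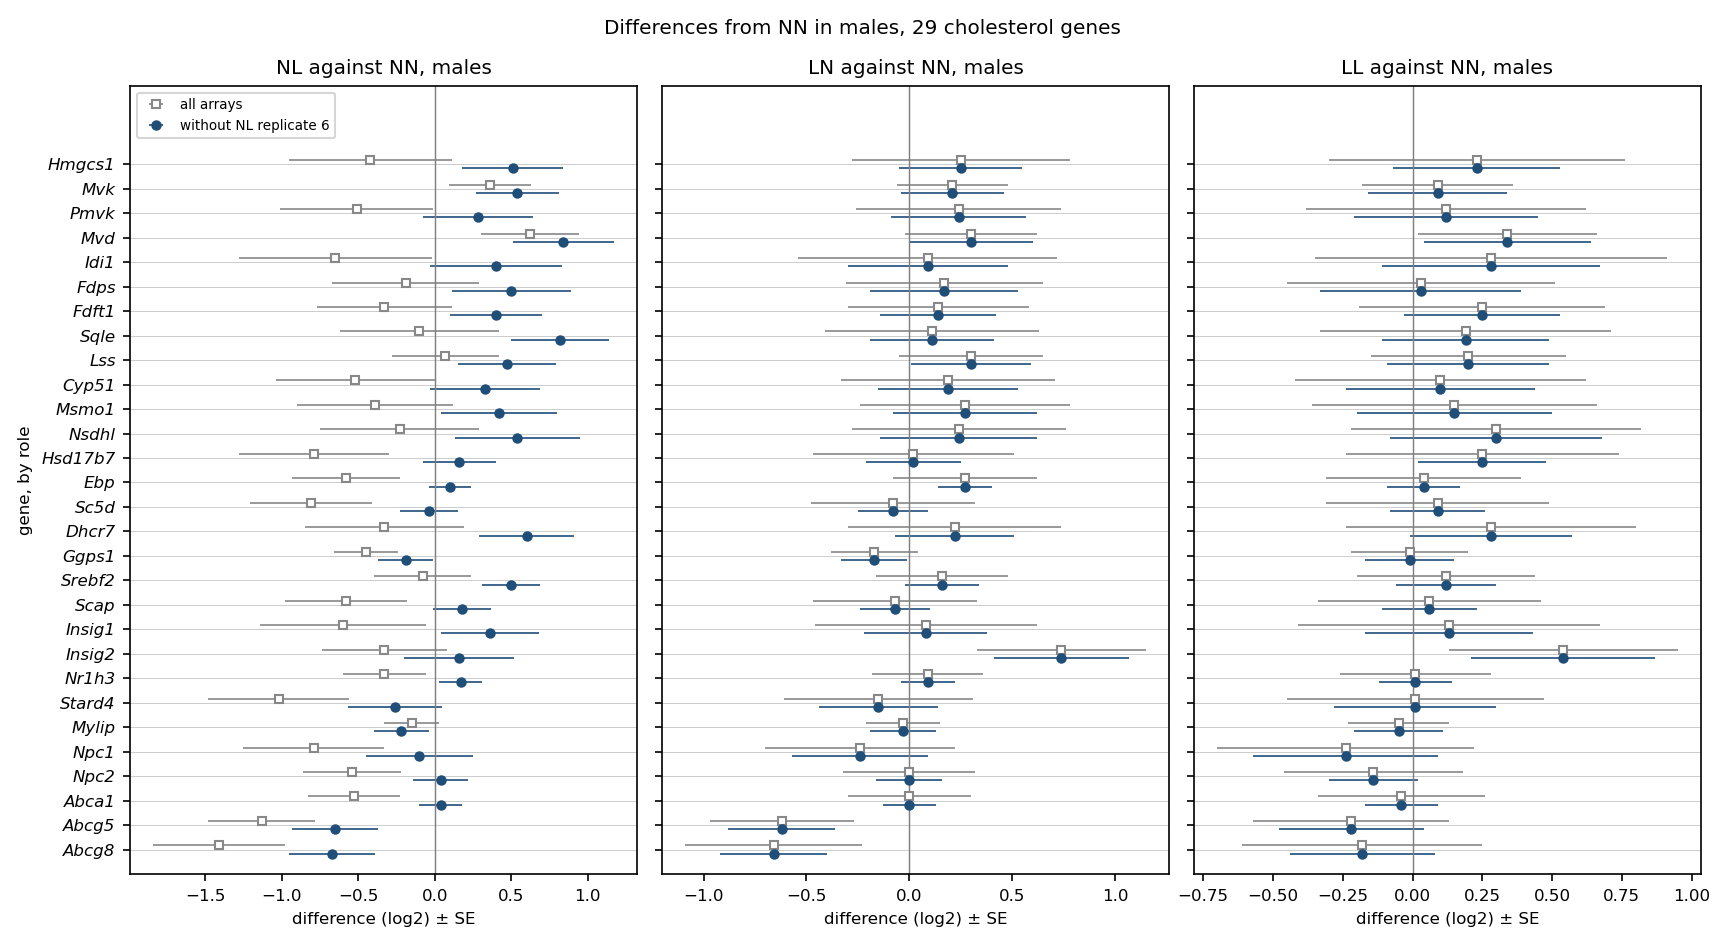
Difference from NN males (log2, horizontal axis) ± SE for 29 genes in NL, LN and LL males, with all 30 arrays (open squares) and without NL replicate 6 (filled). Abcg5 and Abcg8 lie between -0.67 and -0.62 in NL and LN males without that array, and in NL males Sqle moves from -0.10 to 0.82 when it is left out.

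Over all diets, Mylip and Abcg5 were lower in males than in females once NL replicate 6 was left out. Mylip ran from 7.12 over a median of 7.66 to 8.13 in 14 females and from 7.00 over 7.36 to 7.54 in 15 males without NL replicate 6. Abcg5 ran from 8.41 over 9.46 to 9.93 in females and from 8.20 over 9.01 to 9.55 in males. The sexes overlapped for both genes. Here a gene was counted at an adjusted p under 0.05, and with all arrays 0 of 29 passed (2.51% of all probe sets), with Abcg5 at -0.64 (SE 0.18, adjusted p = 0.055) and Mylip at -0.32 (SE 0.09, adjusted p = 0.0701). Without NL replicate 6, 2 of 29 passed (5.65%), Mylip at -0.33 (SE 0.09, adjusted p = 0.0178) and Abcg5 at -0.52 (SE 0.14, adjusted p = 0.0198). These shares of the list lie near those of all probe sets. Levels of markers of some other cells, for which no test was made, also differed between the sexes. Without NL replicate 6, the 1 measured red blood cell marker lay between 6.44 and 8.01 in females and between 8.31 and 9.58 in males, with no overlap. The 4 stellate cell markers averaged 7.70 to 8.83 in females and 7.26 to 7.73 in males, the 4 Kupffer cell markers 7.82 to 8.43 and 7.37 to 8.33, and the 4 sinusoidal endothelium markers 7.45 to 8.05 and 7.23 to 7.85, while the hepatocyte markers averaged 12.94 to 13.04 and 12.90 to 13.01. These ranges overlapped, except for the red blood cell marker. Medians were 3.57 in both sexes for adipocyte markers, and 5.39 in females and 5.32 in males for lymphocyte markers. They were 5.19 and 5.11 for pancreatic acinar cell markers and 5.42 and 5.53 for cholangiocyte markers. The part of other cells in the differences between the sexes was not tested.

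Without LL replicate 1 as well, 3 of 29 passed (5.85%), with Mylip at -0.34 (adjusted p = 0.0222), Abcg5 at -0.52 (adjusted p = 0.0256) and Insig2, higher in males, at 0.57 (adjusted p = 0.0441). Insig2 ran from 6.86 over 7.75 to 8.80 in all 14 females and from 7.63 over 8.10 to 9.05 in 15 males, and LL replicate 1 was at 8.79. Npc2 was at -0.29 without NL replicate 6 (SE 0.09, adjusted p = 0.0502) and Abcg8 at -0.31 (SE 0.14, adjusted p = 0.24). Of the enzymes, 9 of 17 were at higher and 8 at lower means in males without NL replicate 6 (median 0.01), and 4 at higher and 13 at lower means with all arrays (median -0.17). With NN replicate 3 left out besides NL replicate 6, 3 were higher (median -0.13), and with NN replicate 1 left out in its place 13 were (median 0.12).

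Of the 29 genes, the transporters had the smallest p when the NL effect was compared between males and females, without passing the adjustment. Abcg8 was at 10.12, 10.36 and 10.08 in NL females and at 10.09, 9.88 and 8.87 in NN females, so that NL females were high where NL males were low. Without NL replicate 6, the difference between males and females in the effect of NL was -1.25 for Abcg8 (SE 0.41) and -1.14 for Abcg5 (SE 0.41), and it was 1.18 for Sqle (SE 0.47) and 0.61 for Srebf2 (SE 0.28), each with an adjusted p of 0.97. With all arrays the values were -1.99 for Abcg8 and -1.62 for Abcg5, with an adjusted p of 0.661 for both. For the effects of LL, NL or LN, 0 of 29 genes passed at an adjusted p under 0.05 with all arrays (0% of all probe sets) and 0 without NL replicate 6 (0%), and at an unadjusted p under 0.05 the counts without that array were 0 (6.49% of all probe sets), 4 (4.98%) and 0 (7.1%). For the LN origin the differences between the sexes were -0.81 for Abcg5 (SE 0.40) and -0.80 for Abcg8 (SE 0.40), and for the LL origin the smallest p belonged to Ebp (-0.31, SE 0.19).

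Other genes of sterol handling, 26 listed and 21 with a named probe set, were read in the same way. In the 29 arrays without NL replicate 6, 1 of 21 was called in 1 of the 12 comparisons of diets, Lipa, lysosomal acid lipase, which was higher in LN than in NN females by 0.60 (SE 0.17, adjusted p = 0.395), beside 1.79% of all probe sets. With all arrays, 1 was called in NL against NN (Osbp, an oxysterol binding protein, -0.73) beside 5.03% of all probe sets, 3 in NL against LN beside 3.52% and 5 in NL against NN males beside 20.9%, and 0 had an adjusted p under 0.05 in these. Tmem97, a sterol-responsive membrane protein, had r = 0.77 with Sqle (rho = 0.62, permutation p = 0.00081), and 0.56 without NN replicates 1 and 3. Scarb1, the receptor for high-density lipoprotein, had r = -0.24, and Apoa1, the main protein of that particle, 0.08.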

How the data were processed

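Total liver RNA was labelled with the WT PLUS kit and hybridised to Clariom S mouse arrays. The authors used Partek Genomics Suite for the deposited values, which are log2 signals, 1 per probe set and array. Not given in the sources used here are its version, background correction and normalization. The tests covered 22206 probe sets with no filter, after 6923 controls among the 29129 in the table had been set aside. Precision is limited by how many arrays each group holds. The R package limma (3.58.1, under R 4.3.3) was used for linear models with 4 diet groups or 8 groups of diet and sex, over the 30 arrays given here, and again without NL replicate 6. The methods name a one-way analysis of variance and describe more samples for 3 of the groups than were analysed here. Its moderated tests are two-sided, and their p-values received Benjamini-Hochberg adjustment across the 22206. Correlations were computed with numpy on deviations from group means. Their p-values were adjusted over all probe sets, where the plan had the listed genes only. The genes, lists, thresholds and comparisons were chosen with earlier results of these data known. Named are Srebf2, Insig1, Sqle, Nr1h3, Abca1 and Abcg5, each gene at an adjusted p under 0.05, and the 2 with the smallest p in each comparison; further genes named were chosen after their values were seen. No 2 arrays were identical. Same-numbered animals of different groups had deviations with a median correlation of 0.006 over 39 pairs (-0.212 to 0.188). The procedure was tested on simulated data. Alternatives were the plain residual variance of the methods, quantile normalization, median-centring, removal of low signals (below the 40th percentile), array weights, sex as a covariate, a replicate block, the compared groups only, another threshold, and each array left out in turn.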

Additional observations from a re-analysis of the deposited data

Results flagged for a closer look

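NL replicate 6 was the lowest of the 7 NL arrays by a gap beyond Dixon's critical value for 22 of the 29 genes, and the lowest of the 4 NL males for 13, among them Sqle, Hmgcs1, Insig1, Nr1h3 and Abca1. In NN offspring, replicate 3 was set apart as the lowest for 4 genes (Fdps, Nsdhl, Sc5d and Insig1) and as the highest for 1 (Nr1h3), and replicate 1 as the highest for 2 (Hsd17b7 and Srebf2). In LL offspring, replicate 2 was the highest for 1 gene (Mylip) and the lowest for 1 (Nr1h3), replicate 5 was the lowest of the LL females for 2 (Sc5d and Abcg5), and replicate 8 the lowest of the LL males for 1 (Ebp). LN replicate 1 was the highest of the LN arrays for 1 gene (Scap). Chance alone sets apart about 1 in 20 groups. The same counts over all probe sets are not given here.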

How the results depend on the processing

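Over 556 recomputed counts, 511 stayed within 1.5 times the reported count, and of 1498 recomputed values for single genes 1458 kept direction and side of the threshold. Most of the reported counts were 0, and a 0 that stayed 0 was taken as unchanged, so these totals say little about the counts above 0. Asking for an adjusted p gave 0 genes in LN against NN, NL against LN, low protein sperm and NL males. In LN against NN, the plain residual variance and median-centring both gave 0. In NL against NN males, quantile normalization gave 5. Between the sexes, quantile normalization and removal of low signals gave 1, array weights 4, and leaving out NL replicate 6 and LL replicate 1 gave 3. In LN males, array weights, fitting the compared groups alone, and leaving out both arrays each gave 3, and without both arrays low protein sperm gave 0. With the compared groups alone, NL and LN females gave 1 each. Across-group permutation gave 16 genes correlated with Sqle. Leaving out each array in turn gave 2 to 10 genes in NL males (2 without NN replicate 4 or 5, and 5 without NN replicate 3), 0 to 3 in LL females and LN males (2 without LN replicate 5), 0 to 2 between the sexes (above 0 without any 1 of NN replicate 3, LL 4 or 5, NL 5, 6 or 7, or LN 3 or 5), and 0 to 1 in LL, LN and low protein sperm over both sexes and in NL and LN females. In NL males Srebf2 turned to 0.17 with quantile normalization, 0.49 with array weights and 0.50 without NL replicate 6, and Sqle to 0.69 with array weights and 0.82 without NL replicate 6. Ebp in NL turned to 0.05, 0.29 and 0.28 under the same 3 settings. With NL replicate 6, r turned to 0.27 for Insig2 and 0.65 for Nr1h3. Leaving out single arrays moved Mvd in LL females between -0.12 (NN replicate 3) and 0.95 (NN replicate 1), and Nsdhl in LN females between -0.16 and 1.56 (the same arrays). It moved Sqle in NL males between -0.50 and 0.82, Srebf2 there between -0.36 and 0.50, and Ebp in NL between -0.21 and 0.28. In alternatives chosen after seeing the data, the median of the enzymes against NN was 0 to 0.06 in LL, NL and LN without NL replicate 6 and NN replicate 3, and 0.38 to 0.43 without NL replicate 6 and NN replicate 1. With the replicate number as a block, NL males gave 4 genes, and the sex difference was 0.04 for Abcg5 and -0.07 for Insig2, since low numbers are females and high numbers males. The labels do not say what these numbers stand for, and 6 of 39 pairs of the same number correlated above 0.1. The cause of the other changes was not tested.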
